A study of Homo sapiens with 16 samples.

Results

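The 48 genes described here act in the G2 phase and in mitosis, from entry into mitosis through spindle assembly and chromosome separation to cytokinesis. They were taken by symbol from a list of members chosen for this description, and all 48 were found among the 60252 genes of the deposited count table by their Ensembl identifiers. All 48 were among the 23830 genes that passed the filter on low counts. RNA came from LNCaP, an established human prostate cancer cell line, in 16 libraries that made 8 groups of 2. Cells carried a scrambled siRNA (Scr) or an siRNA against OGT (siOGT1 or siOGT2), with knockdown for 48 hours, or were labelled OSMI2, a small-molecule inhibitor of the enzyme OGT. Each of these 4 arms was given DMSO or 0.5 μM AT7519, an inhibitor of several cyclin-dependent kinases, for 4 hours before harvest. OSMI2 stands in the siRNA field of the labels, and the sources used here do not give its dose, its duration or whether scrambled siRNA was present. All groups are of 1 cell line, and nothing in the labels says that the 2 replicates of a group were separate cultures, so that p-values measure the spread between these libraries, which may be technical.

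Cyclin B with its kinase CDK1 drives entry into mitosis once CDC25 phosphatases have activated the kinase. The Aurora and Polo-like kinases then build the spindle, the kinetochore couples chromosomes to microtubules, and the spindle checkpoint holds back CDC20 and the anaphase-promoting complex until every chromosome is attached. Most of these genes are transcribed in a burst in late S phase and G2, through the MuvB complex with B-MYB (MYBL2) and FOXM1 bound at promoters that carry CHR elements, and they are repressed in resting cells by the DREAM complex at the same sites. OGT adds O-linked N-acetylglucosamine to nuclear and cytoplasmic proteins, and CDK9, a target of AT7519, is the kinase that releases paused RNA polymerase II.

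The promoters of these genes were read from RefSeq windows on GRCh38.p14, each 300 bases long, 250 before the annotated start and 50 after it. Of the 48 members, 41 matched a window and 7 did not, and the 41 had 52 windows. The CHR motif was searched as TTTGAA or TTTAAA and the CCAAT box as CCAAT, on both strands. A CHR motif lay in 38 of the 52 windows (73.1%) and in 24.0% of all 35116 windows. Within the stretch from 60 bases before the start to 20 after it, the share was 48.1% of the members' windows and 6.8% of all windows. A CCAAT box lay in 65.4% of the members' windows and in 34.6% of all windows, while TATAAA lay in 3.8% and 11.5%. These matches describe letters in the windows and do not show binding.

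The 8 promoters printed here belong to members with a window on which the results turn. AURKA, TPX2, BIRC5, TTK, BUB3, UBE2C and FOXM1 had no window and could not be shown. PTTG1 had 2 windows, and the other is not printed. SGO1, CENPA, BUB1B and NDC80 were lower with AT7519 in all 4 arms, PTTG1 and MAD2L1 were higher in all 4, and PRC1 and DLGAP5 had the largest falls with siOGT1. Each runs 5′ to 3′ along the gene's own strand, from 110 bases before the start through the first 30 transcribed bases, and capitals mark CHR motifs and CCAAT boxes in either orientation (reverse forms TTCAAA and ATTGG). The windows lie at chr3:20186177-20186316 (minus strand) for SGO1, chr2:26785946-26786085 (plus) for CENPA, chr15:40160959-40161098 (plus) for BUB1B and chr18:2571447-2571586 (plus) for NDC80. Those of the others are chr5:160421745-160421884 (plus) for PTTG1, chr4:120066819-120066958 (minus) for MAD2L1, chr15:90994506-90994645 (minus) for PRC1 and chr14:55191556-55191695 (minus) for DLGAP5.
SGO1: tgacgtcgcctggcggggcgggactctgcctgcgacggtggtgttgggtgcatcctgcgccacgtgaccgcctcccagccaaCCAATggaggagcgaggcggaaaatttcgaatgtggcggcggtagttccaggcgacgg
CENPA: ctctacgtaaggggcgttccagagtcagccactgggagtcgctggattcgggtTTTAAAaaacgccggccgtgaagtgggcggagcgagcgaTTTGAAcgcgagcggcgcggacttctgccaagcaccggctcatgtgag
BUB1B: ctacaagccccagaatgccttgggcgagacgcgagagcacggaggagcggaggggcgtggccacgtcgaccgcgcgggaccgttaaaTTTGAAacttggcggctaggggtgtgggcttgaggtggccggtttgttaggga
NDC80: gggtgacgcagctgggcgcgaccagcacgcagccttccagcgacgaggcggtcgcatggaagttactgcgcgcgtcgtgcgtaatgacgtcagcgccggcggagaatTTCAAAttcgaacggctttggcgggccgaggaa
PTTG1: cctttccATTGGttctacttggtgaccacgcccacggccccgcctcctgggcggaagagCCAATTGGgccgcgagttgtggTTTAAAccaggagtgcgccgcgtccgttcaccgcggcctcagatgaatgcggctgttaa
MAD2L1: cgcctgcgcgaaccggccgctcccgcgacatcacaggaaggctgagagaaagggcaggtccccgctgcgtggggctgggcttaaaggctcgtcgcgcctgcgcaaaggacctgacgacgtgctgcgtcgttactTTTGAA
PRC1: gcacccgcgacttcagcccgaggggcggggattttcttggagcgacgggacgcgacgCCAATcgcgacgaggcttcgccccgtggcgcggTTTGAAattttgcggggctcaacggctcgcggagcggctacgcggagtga
DLGAP5: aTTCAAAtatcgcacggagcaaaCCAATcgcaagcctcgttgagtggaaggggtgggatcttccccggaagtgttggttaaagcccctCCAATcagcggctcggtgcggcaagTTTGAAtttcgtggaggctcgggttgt

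In CENPA and BUB1B, which fell with AT7519, TTTGAA began 18 and 23 bases before the start, and in PRC1 it began 20 bases before it. The PTTG1 promoter, whose gene rose, had TTTAAA 29 bases before the start, and its CCAAT box and a reverse box overlapped by 2 bases. In MAD2L1 the TTTGAA lay 25 bases after the start. The SGO1 window held a CCAAT box and neither form of the CHR motif. Of the 35 members with a CHR motif, 3 were called higher and 15 lower with AT7519 in Scr, and of the 6 without one, 1 was called higher and 3 lower. Of the 7 members with no window, 3 were called higher and 2 lower. The median log2 fold changes of these sets were -0.13, -0.16 and 0.14, and of all tested genes 21.8% were called higher and 24.6% lower. The sets are small and were not compared by a test.

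**Figure D1:**
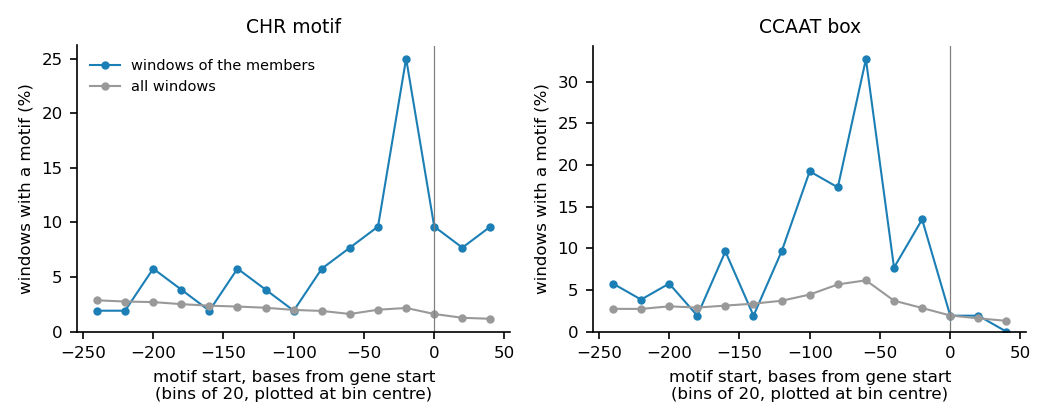
Share of promoter windows (%) in which a CHR motif (left) or a CCAAT box (right) begins in each bin of 20 bases, by distance in bases from the annotated start, for the 52 windows of the members and all 35116 windows. The members' share of CHR motifs is highest in the bin from 30 to 11 bases before the start, and that of CCAAT boxes in the bin from 70 to 51 bases before it.

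Library totals ran from 40216911 to 147019364 counts. OGT, the target of both siRNAs, read 274 and 263 CPM (counts relative to the TMM-scaled library total) in the Scr libraries with DMSO. The siOGT1 libraries had 20.7 and 14.6 CPM, those of siOGT2 36.0 and 29.8 CPM, and the OSMI2 libraries 349 and 336 CPM. All 9 luminal prostate markers were above 1 CPM in every library, with summed levels of 4310 to 5420 CPM. Sums for 3 basal markers were at most 1.08 CPM and for 3 leukocyte markers at most 0.213 CPM, for 3 neuroendocrine markers 2.84 to 7.19 CPM and for 3 stromal markers 10.8 to 40.9 CPM. The part of such markers in the results was not tested.

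Among the members, CPM per kilobase of exon in Scr with DMSO ran from 3.81 for SGO1, the shugoshin that shields cohesin at centromeres, to 81.2 for CCNB1 (cyclin B1). NUSAP1, a microtubule-bundling protein, followed CCNB1 at 60.0, then PTTG1 (securin, the inhibitor of separase) at 57.5 and UBE2C (an E2 enzyme of the anaphase-promoting complex) at 57.5. ESPL1 (separase itself) stood at 6.01 and KIF23 (a midzone kinesin) at 6.98, the next lowest after SGO1. Summed over the 48 genes, the level was 5189 and 5166 CPM in the Scr libraries with DMSO and 5310 and 4746 CPM with AT7519. In the other arms it was 5075 and 4825 against 5117 and 4751 CPM (siOGT1), 4486 and 4216 against 4902 and 4168 CPM (siOGT2), and 4598 and 4203 against 4211 and 4376 CPM (OSMI2). The sums with DMSO and AT7519 overlapped in every arm, while single members moved both ways. In bulk RNA, fewer cells in G2 and mitosis and less RNA per such cell cannot be told apart.

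Exons of 17 members share bases with another tested gene, between 0.1% and 33.1% of their exonic length in GENCODE v29. The kit was strand-specific, but the sources used here do not say which strand setting served in counting, so that values of NCAPG (overlapping LCORL), SMC4 (TRIM59 and IFT80), SGO1 (SGO1-AS1), FOXM1 (ITFG2), PLK1 and PRC1 (antisense genes) are less certain. CENPA shares 7.0% of its exonic length with SLC35F6 on the same strand. PTTG1 has near-identical copies elsewhere in the genome, between which reads may be divided.

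AT7519 split the set. Levels are relative to the scaled library total, so a rise or fall is one against other genes. Amounts of RNA per cell cannot be read from them. In Scr, 7 members rose, 20 fell and 21 passed no threshold (edgeR quasi-likelihood test, Benjamini-Hochberg adjusted p under 0.05 over all tested genes, 2 libraries against 2), with a median log2 fold change of -0.09 against -0.05 over all genes. Of all tested genes, 21.8% were called higher and 24.6% lower, and among well-expressed genes, those whose log2 CPM averaged at least 3, as in all 48 members, 33.5% and 31.4%. Both AT7519 libraries lay below both DMSO libraries for 24 members of the Scr arm (38.7% of all genes) and 24 of the OSMI2 arm (36.3%). For siOGT1 the count was 21 (37.8% of all genes), and siOGT2 had 17 (36.8%). Both AT7519 libraries lay above both DMSO libraries for 15 members of the OSMI2 arm (37.7% of all genes) and 14 of the Scr arm (33.7%). For siOGT2 that count was 14 (33.5% of all genes), and siOGT1 had 15 (33%). In siOGT1, 7 rose and 15 fell (all genes 19.4% and 22%, median -0.03 against -0.05), and in siOGT2, 12 rose and 13 fell (22.2% and 22.8%, median 0.02 against -0.03). In OSMI2, 7 rose and 19 fell (23.6% and 23.6%, median -0.15 against 0.02). Of the well-expressed genes, 31.6% were called higher and 28.3% lower for siOGT1, with 35.1% and 27.9% for siOGT2 and 35% and 32.2% for OSMI2. Against that background the members' rises were fewer in share in every arm (14.6% in Scr, siOGT1 and OSMI2 and 25% in siOGT2). Falls made up 41.7% of the members for Scr, 31.2% for siOGT1, 27.1% for siOGT2 and 39.6% for OSMI2, close to that background for the siRNA arms. The split depended on the scaling. With upper-quartile scaling, rises and falls numbered 16 and 14 for Scr, 14 and 9 for siOGT1, 18 and 12 for siOGT2, then 19 and 14 for OSMI2. With library size alone, the counts were 3 and 28, 3 and 30, 4 and 25, and 4 and 29. With RLE scaling, 8 and 10 were called in siOGT1. The members' median in Scr moved from -0.34 with library size alone to 0.06 with upper-quartile scaling, and that of all genes from -0.30 to 0.10. Shares of well-expressed genes were not counted under these other scalings. The comparison of the members' shares with that background therefore holds for TMM alone.

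Among the members called in Scr, falls reached further than rises. The falls ran from -0.20 to -1.60 on the log2 scale and 3 members fell at least 2-fold, while the rises ran from 0.25 to 0.66. Such ranges are not given for all genes, and the values shift with the scaling. Whether this difference is particular to the members was not tested. Over the 4 arms, 9 members were lower in every arm (AURKA, SGO1, CENPA, BUB1B, NDC80, CDCA8, TTK, KIF2C and CKAP2) and 5 were higher in every arm (BIRC5, PTTG1, MAD2L1, FOXM1 and UBE2C). No member was called higher in 1 arm and lower in another. In no arm were 10 members called, TOP2A, CENPF and TPX2 among them. Such counts over the 4 arms were not made for all genes, so whether those of the members are unusual was not tested. The calls of AURKA, SGO1, CENPA, BUB1B, CDCA8 and CKAP2 (lower) and of FOXM1 and PTTG1 (higher) held in all 4 arms under each of the 23 alternative settings, single libraries left out included. Of all calls, 16 of 27 in Scr, 10 of 22 in siOGT1, 12 of 25 for siOGT2 and 17 of 26 for OSMI2 held under every setting.

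**Figure D2:**
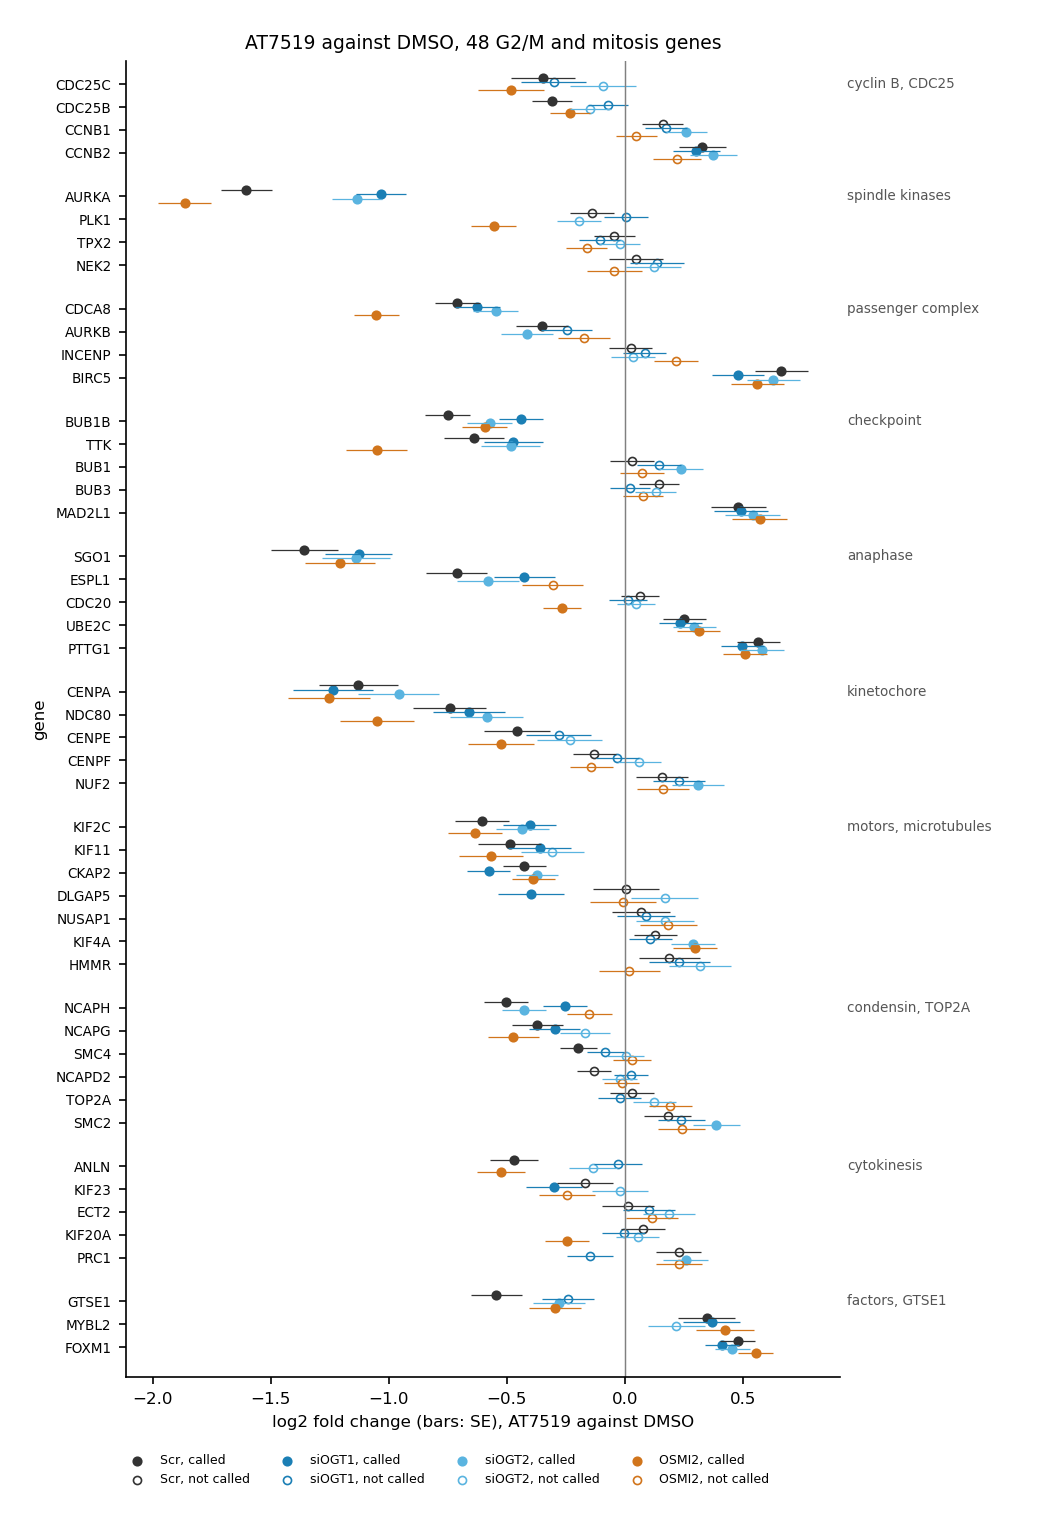
Log2 fold change of each of the 48 genes with AT7519 against DMSO (x axis, log2 scale, bars are SE of the fit) in the Scr, siOGT1, siOGT2 and OSMI2 arms, by role; filled points passed adjusted p under 0.05 and open points did not. AURKA, SGO1 and CENPA lie near or below -1 in every arm, and no point of a rise exceeds 0.66.

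Among the 4 genes of mitotic entry in Scr, 1 cyclin was called higher and both phosphatases lower. CCNB2 (cyclin B2) stood at 88.0 and 84.0 CPM with DMSO and at 115 and 101 CPM with AT7519 in Scr, a log2 fold change of 0.33 ± 0.10 (SE, adjusted p = 0.0113). It was also called higher in siOGT1 (0.30) and siOGT2 (0.37), and was at 0.22 in OSMI2 without passing. CCNB1 was called higher in siOGT2 alone (0.26), with values of 0.16, 0.17 and 0.05 in the others. CDC25B went from 54.3 and 57.0 CPM to 43.1 and 46.7 CPM in Scr (-0.31 ± 0.09, adjusted p = 0.00532) and CDC25C from 26.1 and 25.4 CPM to 21.6 and 19.0 CPM (-0.35 ± 0.14, adjusted p = 0.0441). Both phosphatase genes were called lower in Scr and OSMI2 and in neither siRNA arm. These calls were small, and in Scr each lost its call on leaving out a library: CCNB2 without Scr_DMSO replicate 2 or Scr_AT7519 replicate 1, CDC25B without the latter, and CDC25C without any of the 4 Scr libraries or either OSMI2 library with AT7519.

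Of the spindle kinases, AURKA, which matures centrosomes and assembles the spindle, had the largest change of all members in Scr and OSMI2. In siOGT1 the log2 falls of CENPA (-1.24) and SGO1 (-1.13) exceeded that of AURKA (-1.03). In siOGT2 that of SGO1 was as large (-1.14 against -1.13). AURKA stood at 74.8 and 74.3 CPM with DMSO and 25.7 and 23.4 CPM with AT7519 in Scr. In siOGT1 the values were 73.5 and 67.8 CPM with DMSO and 35.5 and 33.7 CPM with AT7519. In siOGT2 it went from 61.8 and 59.9 CPM to 30.3 and 25.1 CPM, and in OSMI2 from 53.8 and 51.8 CPM to 12.9 and 16.2 CPM. Groups did not overlap in any arm. The fall was 3.04-fold for Scr (log2 -1.60 ± 0.11, SE, adjusted p = 7.12e-10), 2.04-fold for siOGT1, 2.20-fold for siOGT2 and 3.64-fold for OSMI2 (log2 -1.86 ± 0.11, adjusted p = 1.13e-10). TPX2, which activates the AURKA kinase on the spindle, passed in no arm (log2 -0.02 in siOGT2 to -0.16 in OSMI2), nor did NEK2, a centrosome kinase. PLK1, the Polo-like kinase, fell in OSMI2 alone, from 60.9 and 51.2 CPM to 37.0 and 39.3 CPM (-0.56 ± 0.09, adjusted p = 5.98e-05), and stood at 71.4 and 71.2 against 67.7 and 61.6 CPM in Scr.

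The 4 genes of the chromosomal passenger complex, which corrects faulty attachments and steers cytokinesis, moved apart. CDCA8 (borealin) fell in Scr from 73.3 and 72.6 CPM to 47.7 and 41.5 CPM (-0.71 ± 0.10, adjusted p = 4.14e-06) and in OSMI2 from 65.7 and 56.3 CPM to 30.2 and 28.6 CPM (-1.05 ± 0.10, adjusted p = 3.22e-08). BIRC5 (survivin), its partner in the same complex, rose in Scr from 38.3 and 34.4 CPM to 57.0 and 58.1 CPM (0.66 ± 0.11, adjusted p = 5.39e-05), with 0.48, 0.63 and 0.56 in the other arms. The kinase AURKB was called lower in Scr (-0.35) and siOGT2 (-0.41), calls that went without replicate 1 of either Scr group or of siOGT2 with DMSO. The scaffold INCENP passed in no arm and stood at 82.3 and 80.2 against 79.4 and 85.8 CPM in Scr.

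Checkpoint genes also parted. BUB1B (BubR1, part of the mitotic checkpoint complex) fell from 129 and 136 CPM to 84.1 and 73.1 CPM in Scr (-0.75 ± 0.09, adjusted p = 1.89e-06). TTK (the MPS1 kinase that starts checkpoint signalling) fell from 57.1 and 58.5 CPM to 41.2 and 33.0 CPM in Scr (-0.64) and from 55.1 and 50.6 CPM to 25.6 and 25.4 CPM in OSMI2 (-1.05). MAD2L1 (the MAD2 protein that binds CDC20) rose from 157 and 161 CPM to 236 and 207 CPM in Scr (0.48 ± 0.11, adjusted p = 0.00184), and its log2 fold change was 0.49, 0.54 and 0.57 in the others. BUB3 passed in no arm and BUB1 in siOGT2 alone (0.24), where the call went on leaving out either DMSO library of any arm or siOGT2_AT7519 replicate 1.

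In the group of anaphase and cohesin release, SGO1 fell from 14.5 and 14.6 CPM to 5.56 and 5.81 CPM in Scr (-1.36 ± 0.14, SE, adjusted p = 2.06e-07). It stood between 4.52 and 6.73 CPM in the other AT7519 libraries. ESPL1, the protease that cuts cohesin, fell in Scr from 56.9 and 49.9 CPM to 30.1 and 35.0 CPM (-0.71 ± 0.13, adjusted p = 0.000131), and was called in both siRNA arms and not in OSMI2 (-0.31). PTTG1, the inhibitor of ESPL1, moved the other way, from 117 and 115 CPM to 176 and 167 CPM (0.56 ± 0.09, adjusted p = 4e-05). UBE2C was called higher in each arm by 0.23 to 0.31. CDC20, the activator of the anaphase-promoting complex, was close to level in Scr (100.5 and 96.4 against 102 and 104 CPM) and fell in OSMI2 from 76.7 and 76.4 CPM to 61.6 and 65.9 CPM (-0.27 ± 0.08, adjusted p = 0.0104). The UBE2C calls were each lost on leaving out single libraries of the arm, in Scr any of its 4.

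At the centromere, CENPA, the histone H3 variant that marks it, fell from 19.1 and 16.03 CPM to 8.46 and 7.64 CPM in Scr (-1.13 ± 0.17, adjusted p = 1.44e-05). NDC80, the microtubule-binding arm of the kinetochore, fell from 96.2 and 94.3 CPM to 64.2 and 49.7 CPM (-0.74 ± 0.15, adjusted p = 0.000836) and its direct partner NUF2 was at 72.3 and 74.4 against 90.5 and 73.1 CPM (0.16, not called). CENPE, a kinetochore kinesin, was called lower in Scr (-0.46) and OSMI2 (-0.53), and the large protein CENPF in no arm. Of the 7 spindle motors and microtubule binders, 3 fell in Scr. These were KIF2C, a kinesin that depolymerises microtubules (67.7 and 65.4 CPM to 46.3 and 41.2 CPM), KIF11, which pushes spindle poles apart (85.1 and 78.0 CPM to 67.5 and 49.0 CPM), and CKAP2, a spindle-bound protein (124 and 120.0 CPM to 94.8 and 86.8 CPM). Their log2 fold changes were -0.61 ± 0.11, -0.49 ± 0.13 and -0.43 ± 0.09 (SE). The call of CENPE in Scr went without replicate 2 of either Scr group and with upper-quartile scaling. That of KIF11 in Scr went without Scr_DMSO replicate 1 or Scr_AT7519 replicate 2, and that of NDC80 in siOGT2 without siOGT2_AT7519 replicate 2.

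Condensin I genes, which compact mitotic chromosomes, did not move as a unit. The kleisin NCAPH fell in Scr from 74.2 and 74.5 CPM to 55.4 and 49.6 CPM (-0.50 ± 0.09, adjusted p = 0.000166) and NCAPG from 96.3 and 93.1 CPM to 78.6 and 67.8 CPM (-0.37 ± 0.11, adjusted p = 0.00733). SMC4 was called at -0.20 in Scr, its partner SMC2 was not called there (0.18) and was called higher in siOGT2 (0.39). TOP2A, which untangles sister DNA, passed in no arm, with 277 and 272 CPM against 299 and 262 CPM in Scr. Of the cytokinesis genes, ANLN, the anillin scaffold of the contractile ring, fell in Scr from 138 and 137 CPM to 103 and 95.2 CPM (-0.47 ± 0.10, adjusted p = 0.000751) and in OSMI2 (-0.53). Its log2 fold change was -0.03 in siOGT1 and -0.13 in siOGT2, neither called. In Scr the call of NCAPG went without Scr_AT7519 replicate 2, and that of SMC4 without that library, Scr_AT7519 replicate 1, Scr_DMSO replicate 2 or any of 10 libraries outside Scr.

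Both transcription factors of the set rose in Scr. FOXM1 went from 114 and 113 CPM to 161 and 155 CPM in Scr (0.48 ± 0.07, adjusted p = 2.11e-05), with 0.41, 0.45 and 0.55 in the other arms. MYBL2 went from 87.5 and 80.9 CPM to 111 and 103 CPM in Scr (0.35 ± 0.12, adjusted p = 0.0236) and was not called in siOGT2 (0.22). GTSE1, a microtubule-associated protein of G2, fell in Scr from 33.5 and 32.9 CPM to 23.1 and 22.5 CPM (-0.54 ± 0.11, adjusted p = 0.00037). The MYBL2 call in Scr went without either Scr_DMSO library or Scr_AT7519 replicate 1, and with library size alone.

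**Figure D3:**
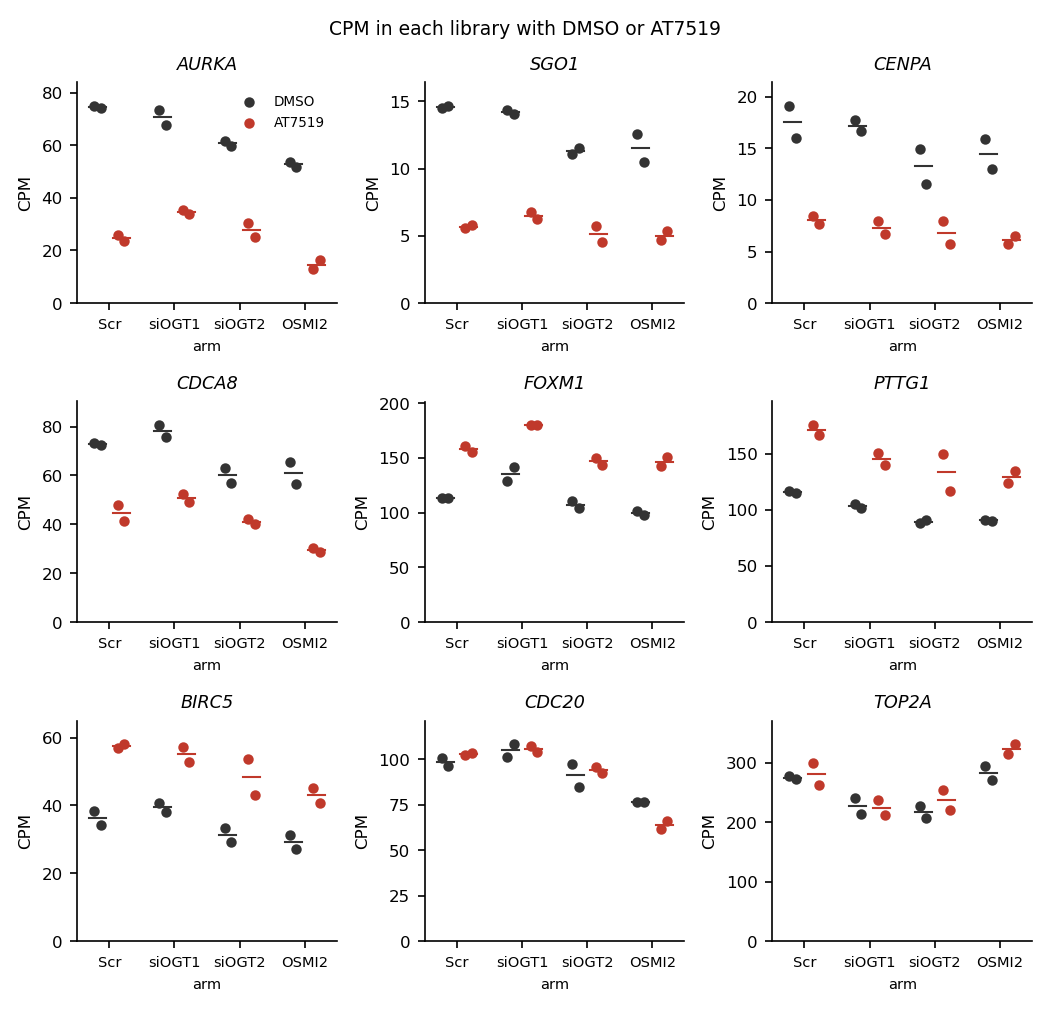
CPM (linear axis from 0) in each library with DMSO (dark) or AT7519 (red) for 9 genes in the 4 arms; points are libraries and bars their means (n = 2). AURKA, SGO1, CENPA and CDCA8 lie lower with AT7519, FOXM1, PTTG1 and BIRC5 higher, and CDC20 and TOP2A overlap or lie close in Scr.

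Outside the 48 members, 106 other genes of the pathway were listed in 6 groups, and in Scr 27 rose, 42 fell and 37 passed no threshold with AT7519, which makes 25.5% higher and 39.6% lower (all genes 21.8% and 24.6%, well-expressed genes 33.5% and 31.4%). CDK1, the kinase partner of cyclin B, rose (0.59 ± 0.10, adjusted p = 4.6e-05), while MASTL, the kinase that restrains the phosphatase opposing CDK1, fell (-1.37 ± 0.15, adjusted p = 4.53e-07). Of 17 genes of the anaphase-promoting complex list, 6 rose and 4 fell, with the subunit CDC27 and the activator FZR1 among the falls. Among 31 other centromere and kinetochore genes, 8 rose and 9 fell, with CENPC at -0.98 and MIS12 at -0.89. Of 22 other spindle, motor and cytokinesis genes, 4 rose and 14 fell, with the kinesin KIF18A at -1.08 and ASPM, a spindle-pole protein, at -0.90. Of 15 genes of cohesin, condensin II and partners, 4 rose and 7 fell, among them WAPL, which releases cohesin (-1.48), and NIPBL, which loads it (-1.37). In the list of MuvB, DREAM and E2F partners, 1 of 12 rose and 6 fell, with LIN54, the subunit that reads the CHR element, at -1.33 and RBL1 (p107) at -1.12.

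Across the 48 members in Scr, the AT7519 log2 fold change had a Pearson r of 0.448 and a Spearman rho of 0.419 with the log2 level per kilobase, r of -0.231 with the span of the gene and r of -0.003 with its exonic length. These are descriptions over 48 genes of the same libraries, and the level used for the first is the starting point of the fold change. The 7 members called higher spanned a median of 11.5 kb (4.4 to 49.5 kb), the 20 called lower a median of 34.9 kb (5.9 to 92.6 kb) and the 21 not called a median of 34.2 kb.

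Without AT7519, siOGT1 changed 4 members against Scr. It raised 1 and lowered 3 (all genes 4.89% and 5.51%, together 10.4%, and well-expressed genes 7.45% and 9.84%). Neither share of the members, 2.08% higher and 6.25% lower, exceeds that of well-expressed genes. The members' median log2 difference from Scr was -0.04. PRC1, which bundles antiparallel microtubules in the spindle midzone, stood at 147 and 139.7 CPM in Scr and 82.4 and 71.0 CPM in siOGT1 (-0.90 ± 0.10, SE, adjusted p = 6.48e-06), and its call held under all 23 alternatives. DLGAP5 (HURP, which stabilises microtubules near chromosomes) stood at 125 and 128 CPM in Scr and 89.6 and 83.3 CPM in siOGT1 (-0.55 ± 0.14, adjusted p = 0.0176). NCAPG was lower (-0.36, adjusted p = 0.0364) and FOXM1 higher (0.25, adjusted p = 0.0309). The calls of DLGAP5 and FOXM1, like that of NCAPG, were lost without any single Scr or siOGT1 library with DMSO. In siOGT2, PRC1 stood at 133 and 122 CPM (-0.17 ± 0.10, not called) and DLGAP5 at 112 and 109 CPM (-0.19 ± 0.14, not called).

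With siOGT2 the members were lower as a group. Log2 differences from Scr were below 0 for 47 of 48 with a median of -0.28 against -0.02 over all genes, 13 were called lower and none higher (all genes 2.38% and 1.92%, together 4.3%; well-expressed genes 4.78% and 2.77%). Both siOGT2 libraries lay below both Scr libraries for 42 members, which held for 27.5% of all genes. Members also moved together between replicates of a group, so such counts are not of independent genes. The differences called ran from -0.28 to -0.50, all under 2-fold. INCENP stood at 82.3 and 80.2 CPM in Scr and 62.1 and 52.6 CPM in siOGT2 (-0.50 ± 0.09, adjusted p = 0.00355), NUSAP1 at 174 and 171 CPM and 132 and 117 CPM (-0.47 ± 0.12), and NEK2 at 71.7 and 70.2 CPM and 54.0 and 49.4 CPM (-0.46 ± 0.12). KIF20A, a midzone kinesin, was at -0.45, with MAD2L1 at -0.45, UBE2C at -0.44 and PTTG1 at -0.37. All 6 genes of the condensin and TOP2A group were called lower, from NCAPG (-0.40) and NCAPH (-0.37) to NCAPD2 (-0.28). No member was higher in DESeq2 or at an unadjusted p under 0.05, where 30 were lower. Among all 23830 tested genes, 3993 had an unadjusted p under 0.05 in either direction. None of the 13 calls held under all 23 alternatives. With single libraries left out, the members' median log2 difference ran from -0.34 to -0.23, against -0.05 to 0 over all genes.

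Members were also lower as a group with OSMI2. Log2 differences were below 0 for 47 of 48, the median was -0.25 against -0.01 over all genes (-0.15 against 0.09 with library size alone), and 9 were called lower and none higher (all genes 2.49% and 0.491%, together 2.98%; well-expressed genes 5.76% and 0.738%). Both OSMI2 libraries lay below both Scr libraries for 38 members (27.2% of all genes). NCAPH stood at 74.2 and 74.5 CPM in Scr and 46.7 and 43.0 CPM in OSMI2 (-0.73 ± 0.09, SE, adjusted p = 0.000881), and its call held under all 23 alternatives. AURKA stood at 74.8 and 74.3 CPM and 53.8 and 51.8 CPM (-0.50 ± 0.10, adjusted p = 0.0134), and CCNB1 at 209 and 207 CPM and 157 and 153 CPM (-0.42 ± 0.09, adjusted p = 0.0131). Also called were SMC4 (-0.42), BUB1B (-0.42), CDC20 (-0.36), PTTG1 (-0.35), PLK1 (-0.35) and UBE2C (-0.34). TOP2A, lower with siOGT2, stood at 294 and 271 CPM in OSMI2 against 277 and 272 CPM in Scr. No member was higher in DESeq2, which called 15 lower, or at an unadjusted p under 0.05, where 27 were lower. Among all 23830 tested genes, 3623 had an unadjusted p under 0.05 in either direction. Apart from NCAPH, each call was lost on leaving out single libraries. The members' median then ran from -0.34 to -0.19, against -0.02 to 0.01 over all genes. The 3 arms share the Scr libraries. Within OSMI2 with DMSO, 46 of 48 members were higher in replicate 1 than in replicate 2 (median ratio 1.102), and in siOGT2 with DMSO 42 of 48 were (1.087). The 47 members below 0 are thus not 47 independent observations.

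**Figure D4:**
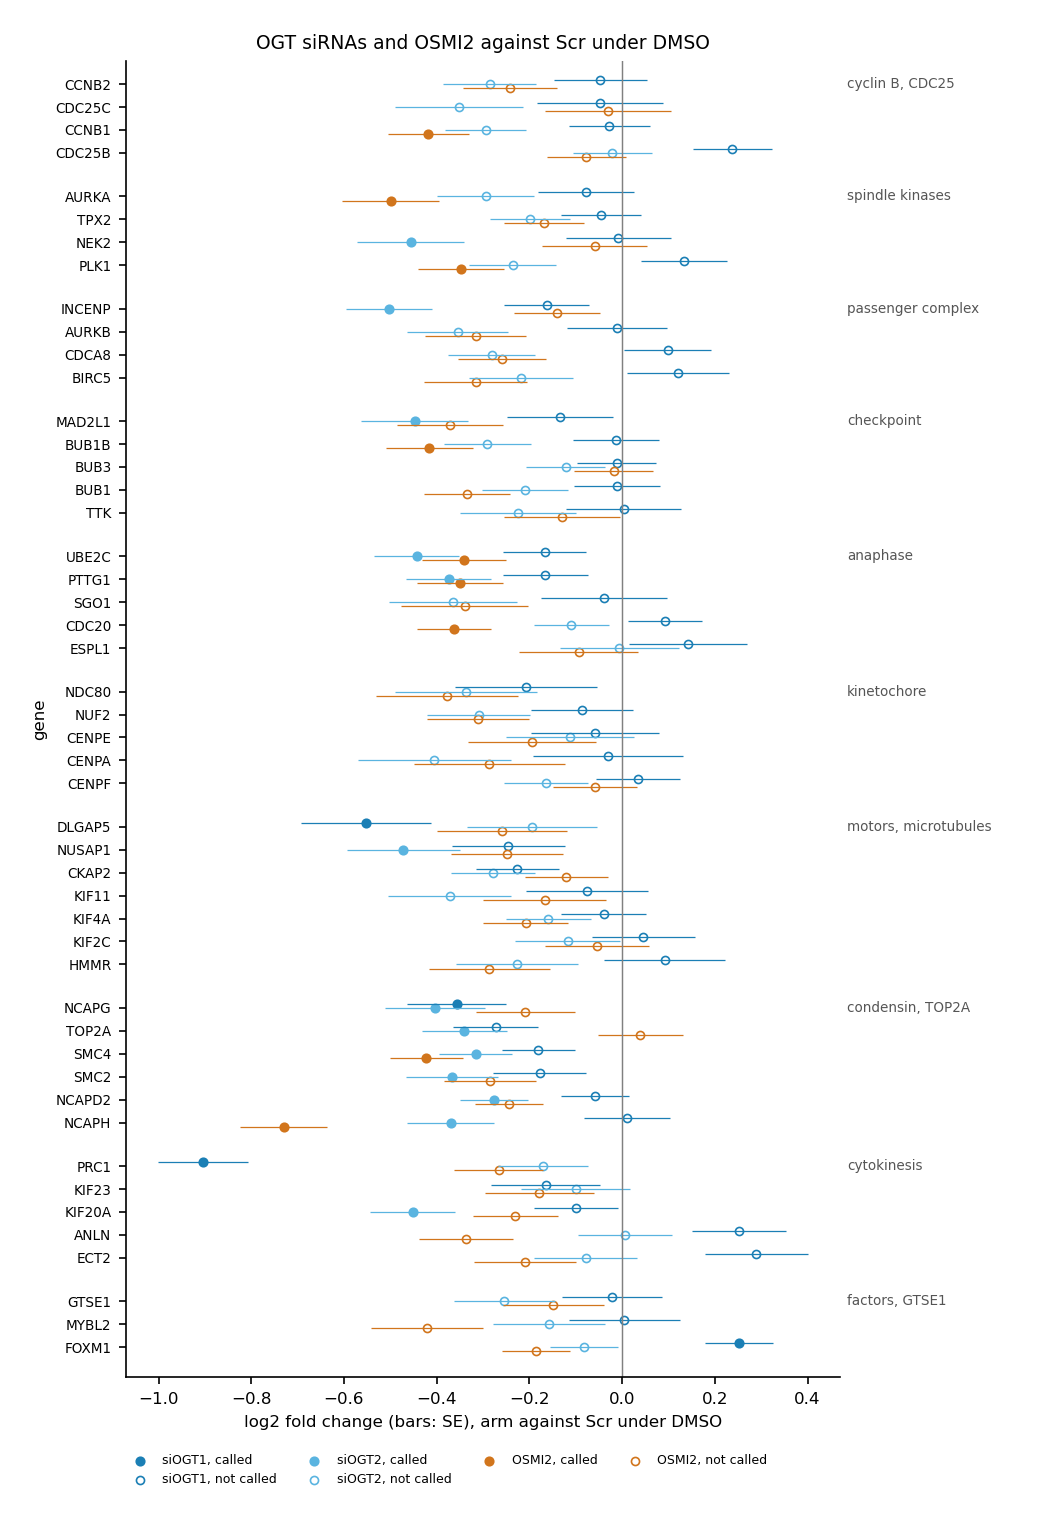
Log2 fold change of each of the 48 genes under DMSO in siOGT1, siOGT2 and OSMI2 against the same Scr libraries (x axis, log2 scale, bars are SE of the fit), by role; filled points passed adjusted p under 0.05. Points of siOGT2 and OSMI2 lie left of 0 for 47 of 48 genes each, and PRC1 in siOGT1 lies at -0.90.

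Most of the other pathway genes passed no threshold between arms. Under DMSO, 23 of the 106 were called lower and 1 higher with siOGT2 (median -0.19), 9 lower and 0 higher with OSMI2 (median -0.20), and 10 lower and 2 higher with siOGT1 (median -0.08). The shares called lower were 21.7%, 8.49% and 9.43%, where 4.78%, 5.76% and 9.84% of well-expressed genes were called lower. A comparison list of 40 genes of G1/S and DNA replication had 17 lower and 0 higher with siOGT2 (median -0.36), 20 lower and 0 higher with OSMI2 (median -0.39), and 7 lower and 1 higher with siOGT1. The lower levels under siOGT2 and OSMI2 were also seen in genes of the earlier cell cycle.

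The siRNAs were compared directly under DMSO, where counts of members are again not of independent genes. Levels were higher with siOGT1 than with siOGT2 for 45 of 48 members, with a median log2 difference of 0.23 against 0.01 over all genes, and 5 members were called higher and 1 lower (all genes 0.705% and 1.11%, well-expressed genes 1.51% and 2.23%). PRC1 was the one lower with siOGT1 (-0.73 ± 0.10, SE, adjusted p = 0.000175) and its call held under all 23 alternatives. The others were NEK2 (0.45), CDCA8 (0.38), NCAPH (0.38), PLK1 (0.37) and FOXM1 (0.34 ± 0.07, adjusted p = 0.0172). FOXM1 stood at 129 and 141 CPM with siOGT1 and 111 and 104 CPM with siOGT2, on either side of 114 and 113 CPM in Scr. Apart from PRC1, each call was lost on leaving out single libraries. The members' median then ran from 0.19 to 0.29, against -0.01 to 0.04 over all genes.

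With AT7519 present, siOGT1 again lowered PRC1 and DLGAP5 against Scr. PRC1 stood at 179 and 157 CPM in Scr and 71.8 and 66.8 CPM in siOGT1 (-1.28 ± 0.10, SE, adjusted p = 3.82e-08), and DLGAP5 at 141 and 113 CPM and 73.8 and 57.6 CPM (-0.95 ± 0.14, adjusted p = 0.00017). CKAP2 (-0.38) and TOP2A (-0.32) were also lower, which made 4 falls, and 7 members were higher (all genes 9.97% and 9.19% higher and lower, well-expressed genes 15.4% and 16.1%). Neither share of the members exceeds that of well-expressed genes. ANLN stood at 103 and 95.2 CPM in Scr and 164 and 156 CPM in siOGT1 (0.69 ± 0.10, adjusted p = 8.22e-05), AURKA at 25.7 and 23.4 CPM and 35.5 and 33.7 CPM (0.49 ± 0.11, adjusted p = 0.00257). CDC25B (0.47), ESPL1 (0.43), ECT2, which activates RhoA for the contractile ring (0.38), BUB1B (0.30) and PLK1 (0.28) were the other rises. For ANLN and AURKA both siOGT1 libraries lay above both Scr libraries under AT7519, as for 26.2% of all genes. Under DMSO the ANLN libraries did not overlap either, with 170.2 and 157 CPM in siOGT1 and 138 and 137 CPM in Scr (0.25, not called), and AURKA was at -0.08, not called. Under DMSO, 27.7% of all genes had both siOGT1 libraries above both Scr libraries. Of the 11 calls, 5 held under all 23 alternatives (PRC1, DLGAP5, ANLN, AURKA and CDC25B), and the others were lost without single AT7519 libraries of Scr or siOGT1.

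With siOGT2 and AT7519, 7 members were lower and 1, ANLN (0.34), was higher than in Scr (all genes 3.48% and 4.68%, well-expressed genes 6.24% and 7.99%). Of the 13 lower under DMSO, 6 were lower here too (46.2% of 13 and 85.7% of 7), and these were INCENP, KIF20A, MAD2L1, NEK2, PTTG1 and UBE2C. The falls ran from -0.36 to -0.49. None of the 8 calls held under all 23 alternatives. On leaving out single libraries, the members' median log2 difference ran from -0.31 to -0.04, against -0.01 to 0.02 over all genes. In siOGT2 with AT7519, 43 of 48 members were higher in replicate 1, with a median ratio of 1.188, the widest gap of the 8 groups.

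With OSMI2 and AT7519, 17 members were lower and none higher (all genes 9.01% and 5.18%, well-expressed genes 19.5% and 5.93%), with a median of -0.26 against 0.02 over all genes (-0.16 against 0.12 with library size alone). CDC20 stood at 102 and 104 CPM in Scr and 61.6 and 65.9 CPM in OSMI2 (-0.69 ± 0.08, SE, adjusted p = 2.19e-05), PLK1 at 67.7 and 61.6 CPM and 37.0 and 39.3 CPM (-0.76 ± 0.09, adjusted p = 3.51e-05) and AURKA at 25.7 and 23.4 CPM and 12.9 and 16.2 CPM (-0.76 ± 0.11, adjusted p = 0.00015). In each of these both OSMI2 libraries lay below both Scr libraries, which held for 25.6% of all genes. NDC80 (-0.69), CDCA8 (-0.60), KIF20A (-0.55), TTK (-0.54) and CCNB1 (-0.53) followed. The 7 members lower in OSMI2 under both agents were AURKA, CCNB1, CDC20, NCAPH, PLK1, PTTG1 and UBE2C (77.8% of the 9 and 41.2% of the 17). No member was higher in DESeq2 either. At an unadjusted p under 0.05, 2 members had a positive difference and 27 a negative one. Such a p was found for 6581 of all 23830 tested genes, in either direction. Calls held under all 23 alternatives for 7 members, among them CDC20, PLK1, AURKA, CDCA8 and CCNB1. When single libraries were left out, the members' median ran from -0.38 to -0.23, against -0.05 to 0.03 over all genes.

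**Figure D5:**
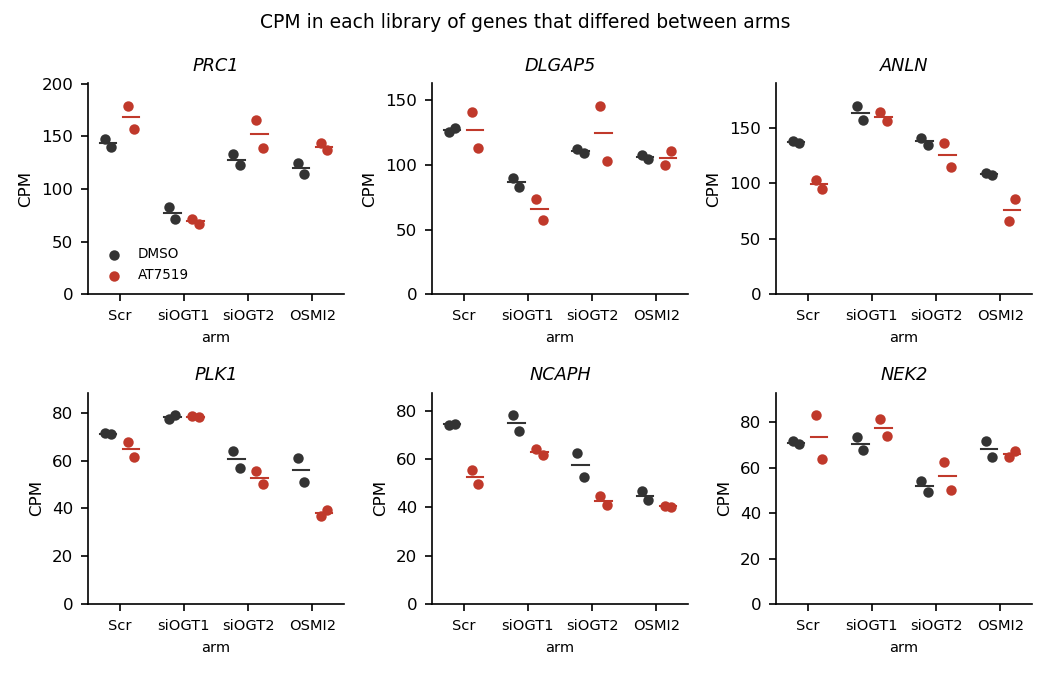
CPM (linear axis from 0) in each library with DMSO (dark) or AT7519 (red) for 6 genes that differed between arms; points are libraries and bars their means (n = 2). PRC1 and DLGAP5 are lowest in siOGT1 under either agent, ANLN and PLK1 with AT7519 are highest in siOGT1 and lowest in OSMI2, and NCAPH is lowest in OSMI2 under DMSO.

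Whether the AT7519 response itself differed from that in Scr was tested as an interaction. No member passed in edgeR for siOGT1, siOGT2 or OSMI2 (all genes 0.0504%, 0% and 0.747%), and 4, 2 and 7 members had an unadjusted p under 0.05. Such a p was found for 1393, 928 and 2087 of all 23830 tested genes. DESeq2 called 1, 0 and 0. The member called for siOGT1 in DESeq2 was AURKA, whose fall was smaller than in Scr by 0.57 ± 0.15 on the log2 scale (SE, edgeR adjusted p = 0.247). For OSMI2 the lowest adjusted p was that of PLK1 (-0.42 ± 0.13, adjusted p = 0.215), which fell in OSMI2 and was not called in Scr. The response of ANLN, called in Scr and not in siOGT1, differed by 0.44 ± 0.14 (adjusted p = 0.484), and that of PRC1 by -0.38 ± 0.14 (adjusted p = 0.606). The median SE of a member's difference in response was 0.143 for either siRNA and 0.144 for OSMI2, on the log2 scale.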

How the data were processed

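RNA of 16 LNCaP libraries (8 groups of 2) was analysed from the raw counts per gene that the authors deposited. Per the submitters' processing notes, STAR, HTSeq and DESeq2 were used with hg19 and GRCh37, for which the sources used here give no versions or settings. Per the labels' protocols, a strand-specific kit was used on total RNA. A separate table of normalized values was not used here. Library totals of 40216911 to 147019364 counts set the precision, with a common biological coefficient of variation of 0.11. The counts carry no molecular identifiers.

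Genes passing filterByExpr on the 8 groups (23830 of 60252) were scaled by TMM and fitted in edgeR 4.0.16 (R 4.3.3) with 1 mean per group over all 16 libraries, 8 residual degrees of freedom, robust quasi-likelihood dispersion and two-sided tests, with Benjamini-Hochberg adjustment over all tested genes in each of 14 comparisons. The SE divides the size of a log2 fold change by the square root of F. CPM values use the TMM-scaled library totals. Symbols came from a gene name table that named 55528 identifiers. Gene models are GENCODE v29 on GRCh38 and served for lengths and overlaps, with no coordinates of counted genes given. Promoters are RefSeq windows on GRCh38.p14.

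The 48 members, the role groups, the other pathway lists and the tests were chosen with earlier results of these data known. Values in every library are given for the called members with the largest changes with AT7519 in Scr (2 for each role group) and under DMSO (3 for each arm), and always for FOXM1, MYBL2, AURKA, PLK1, CCNB1, CDC20, TOP2A and BIRC5. Other members were named after their values were seen. Other settings tried were DESeq2 1.42.0, scaling by RLE, by upper quartiles or by library size, no low-count filter, the compared groups alone, a replicate block and each library left out. Direct contrasts of arms with AT7519 and a crossed block were added after seeing the data.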

Additional observations from a re-analysis of the deposited data

Results flagged for a closer look

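The siRNAs against OGT differed from each other under DMSO in 6 members, tested directly in edgeR (2 libraries against 2). As siOGT1 minus siOGT2 on the log2 scale, PRC1 was at -0.73 (adjusted p = 0.000175), NEK2 at 0.45 (adjusted p = 0.0499), CDCA8 at 0.38 (adjusted p = 0.041), NCAPH at 0.38 (adjusted p = 0.0377), PLK1 at 0.37 (adjusted p = 0.0441) and FOXM1 at 0.34 (adjusted p = 0.0172). In PRC1, NEK2, CDCA8, NCAPH, PLK1 and FOXM1 both libraries of the higher arm lay above both of the other. Of all genes, 24.6% lay so with siOGT1 higher and 20.5% with siOGT1 lower. OGT itself was 1.85-fold lower with siOGT1 than with siOGT2 (adjusted p = 0.00113), and the part of this gap in the differences was not tested.

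With AT7519, 3 members stood on opposite sides of Scr in different arms. Log2 differences from Scr were 0.49 with siOGT1 and -0.76 with OSMI2 for AURKA, and 0.28 and -0.76 for PLK1. For ANLN they were 0.69 with siOGT1, 0.34 with siOGT2 and -0.39 with OSMI2. In edgeR contrasts between the arms, added after these values were seen, siOGT1 exceeded OSMI2 by 1.25 ± 0.11 for AURKA (SE, adjusted p = 1.26e-07), by 1.04 ± 0.10 for PLK1 (adjusted p = 1.81e-07) and by 1.08 ± 0.10 for ANLN (adjusted p = 3.16e-07), where 28.9% of all genes were called. For ANLN, siOGT2 exceeded OSMI2 by 0.73 ± 0.10 (adjusted p = 3.77e-05, 24.2% of all genes called). AURKA, PLK1 and ANLN were chosen for this pattern. Each contrast is the gap between the differences from Scr used in that choice, so these p-values add no separate evidence. The rise of PLK1 over Scr with siOGT1 lost its call in 9 of 23 settings, among them without any single Scr or siOGT1 library, that of ANLN with siOGT2 in 12, and the fall of ANLN with OSMI2 in 2 (without Scr_AT7519 replicate 1 or OSMI2_AT7519 replicate 1).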

How the results depend on the processing

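Counts of members called are given first, then single genes. For OSMI2 against Scr under DMSO (9), counts were 5 with upper-quartile scaling, 4 with library size alone, 15 in DESeq2, 14 with no low-count filter, 15 with the compared groups alone and 18 with a replicate block. With AT7519 (17), the count was 29 with no low-count filter. For siOGT1 under DMSO (4) it was 7 with library size alone and 10 with the compared groups alone, and with AT7519 (11) it was 7 with the compared groups alone. For siOGT2 under DMSO (13) it was 22 with the compared groups alone and 22 with a replicate block. With AT7519 (8), it was 14 with a replicate block and 0 with the compared groups alone, where 13 members had an unadjusted p under 0.05 in edgeR. Between the siRNAs (6) it was 12 with no low-count filter and 13 with the compared groups alone. For interactions (0) it was 1 for siOGT1 in DESeq2 and with no low-count filter (AURKA), and 1 for OSMI2 with no low-count filter (PLK1).

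Leaving out each library in turn, counts ran for AT7519 against DMSO from 20 to 28 (Scr), 14 to 24 (siOGT1), 18 to 27 (siOGT2) and 22 to 28 (OSMI2). The siOGT1 low of 14 was without siOGT1_DMSO replicate 1. Under DMSO they ran from 1 to 6 (siOGT1), 0 to 14 (siOGT2) and 1 to 11 (OSMI2), with AT7519 from 7 to 14, 3 to 13 and 8 to 27, and between the siRNAs from 1 to 9. Interactions stayed at 0 to 0. A lone library was taken to vary like the other groups. Calls over all genes also shifted with the library left out. These counts therefore do not set the members apart from other genes.

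With library size alone, the all-gene median of AT7519 against DMSO in Scr was -0.30 against -0.05 with TMM, and 0.10 with upper-quartile scaling. Among log2 fold changes of AT7519 against DMSO called with TMM or with library size alone, 15 turned from positive to negative with library size alone, and members called under neither are not listed. These were BUB1 -0.22, TOP2A -0.22 and ECT2 -0.24 in Scr, PLK1 -0.22, BUB3 -0.20, CDC20 -0.21 and NCAPD2 -0.20 in siOGT1, and CCNB1 -0.20 and SMC4 -0.22 in OSMI2. In siOGT2 they were CCNB1 -0.0094, BUB1 -0.032, CDC20 -0.22, CENPF -0.21, SMC4 -0.27 and PRC1 -0.013. The cause of other shifts was not tested.

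Replicate numbers come from the labels, 2 per group. Within-group differences of same-numbered libraries correlated at 0.603 to 0.734 between siRNA arms of the same agent (10028 genes averaging at least 3 in log2 CPM), 0.0473 to 0.178 between OSMI2 and another arm, and -0.135 to 0.434 between agents of an arm. With a replicate block, calls for AT7519 were 28 (Scr), 26 (siOGT1), 28 (siOGT2) and 30 (OSMI2), and with the numbers crossed for siOGT2, chosen after seeing the data, 26. Depth left no member under the filter.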
